A study of Mus musculus with 12 samples.

Results

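Heat shock in wild-type mouse embryonic fibroblasts was followed by RNA-seq across all genes with detectable RNA. The genes described here are those with at least 1 FPKM (fragments per kilobase of gene length, scaled to library depth) in at least 3 of the 6 wild-type libraries, which kept 12294 of the 54532 genes in the deposited table. Of these libraries, 3 came from wild-type fibroblasts without treatment and the other 3 from wild-type fibroblasts kept for 1 h at 43 °C. The study also holds 3 unheated and 3 heated libraries of fibroblasts that lack CHIP, the ubiquitin ligase encoded by Stub1 (CHIP-KO), which are used here only where the response of wild-type cells is compared with theirs. The same filter on the CHIP-KO libraries kept 12140 genes. The labels name the cells as an embryonic fibroblast cell line and give no embryo age, strain, number of lines, time between heat and lysis, or origin of the replicates. Nothing states that replicates came from separate cultures, so p-values measure the spread between these libraries, which may be technical. Genes at the minimum in exactly 3 libraries numbered 807, with a median mean of 1.14 FPKM, and 500 genes lay just outside with 2 libraries at the minimum and a median of 0.836 FPKM.

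Heat unfolds proteins, and cells answer through heat shock factors, chiefly HSF1, which is released from chaperones, forms trimers and binds inverted repeats of the bases GAA in promoters. Its targets are chaperones: HSP70 and HSP110 bind exposed stretches of unfolded chains, HSP40 (DNAJ) proteins deliver the chains and trigger the HSP70 cycle, small heat shock proteins hold aggregating proteins, and HSP90 finishes the folding of kinases and receptors. CHIP binds the tails of HSP70 and HSP90 and marks their clients with ubiquitin for the proteasome. Heat also activates MAP kinases, which switch on immediate early genes such as Fos and Egr1, and it slows the transcription of many other genes and the progress of the cell cycle.

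Depth recovered from the deposited values was 15591924 to 20098901 fragments in unheated and 17103444 to 19294361 in heated libraries. More genes were above 0 in heated libraries (21703 to 23031) than in unheated ones (18597 to 20431). Stub1, the gene missing from CHIP-KO cells, stood at 64.1, 63.4 and 57.5 FPKM before heat and 54.4, 53.8 and 57.9 FPKM after it in wild type, against 1.17, 1.02 and 0.722 FPKM before heat and 1.17, 0.996 and 1.06 FPKM after it in CHIP-KO cells. Both wild-type libraries numbered 1 were unlike the remaining replicates: pairs with them differed by a chi-square of 17.6 to 26.7 per degree of freedom, while the remaining unheated and heated pairs gave 3.49 and 5.09. Their weights in a fit that weights libraries by their spread were 0.276 unheated and 0.218 heated, where the others had 0.708 to 5.64. Among fibroblast markers, Col1a1 stood at 803 to 1379 FPKM and Vim at 481 to 668 FPKM over the 6 libraries, but Thy1, Dcn and Lum did not pass 0.0996 FPKM in any library. Ptprc, the marker of blood cells, did not pass 0.0104 FPKM.

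Changes are given as differences of mean log2(FPKM + 1), heated minus unheated, with limma's standard error after the ± sign, and a gene is said to rise or fall where the Benjamini-Hochberg adjusted p over all 12294 genes was under 0.05. By that test 6164 genes changed (50.1%), of which 2943 rose (23.9%) and 3221 fell (26.2%). Counts of rises and falls in the gene lists below stand beside these shares. The rises were larger than the falls: 784 genes rose and 216 fell by at least 2-fold, and 153 rose and 8 fell by at least 4-fold. These counts include genes that reached the minimum in 1 group alone. With at least 1 library of each group at the minimum, 488 rose and 200 fell by at least 2-fold. Groups did not overlap for 7532 genes, or 61.3%. Heated replicate 1 was the highest library in 480 of the 784 and the lowest in 131 of the 216, and it was the highest heated library in 4525 of all 12294 genes. Without both libraries numbered 1, 6856 genes were called, and 5719 of the 6164 calls remained in the same direction. Scaling every library to an equal sum of FPKM took the median change over the 12294 genes from -0.03 to -0.23 and turned the split to 1942 higher and 5495 lower. The balance of rises and falls therefore depends on the scaling, although median-of-ratios and quantile scaling shifted that median by 0.036 and -0.037. Of the 6164 called genes, 5163 kept call and direction with equal sums and 0 were called in the opposite direction.

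**Figure D1:**
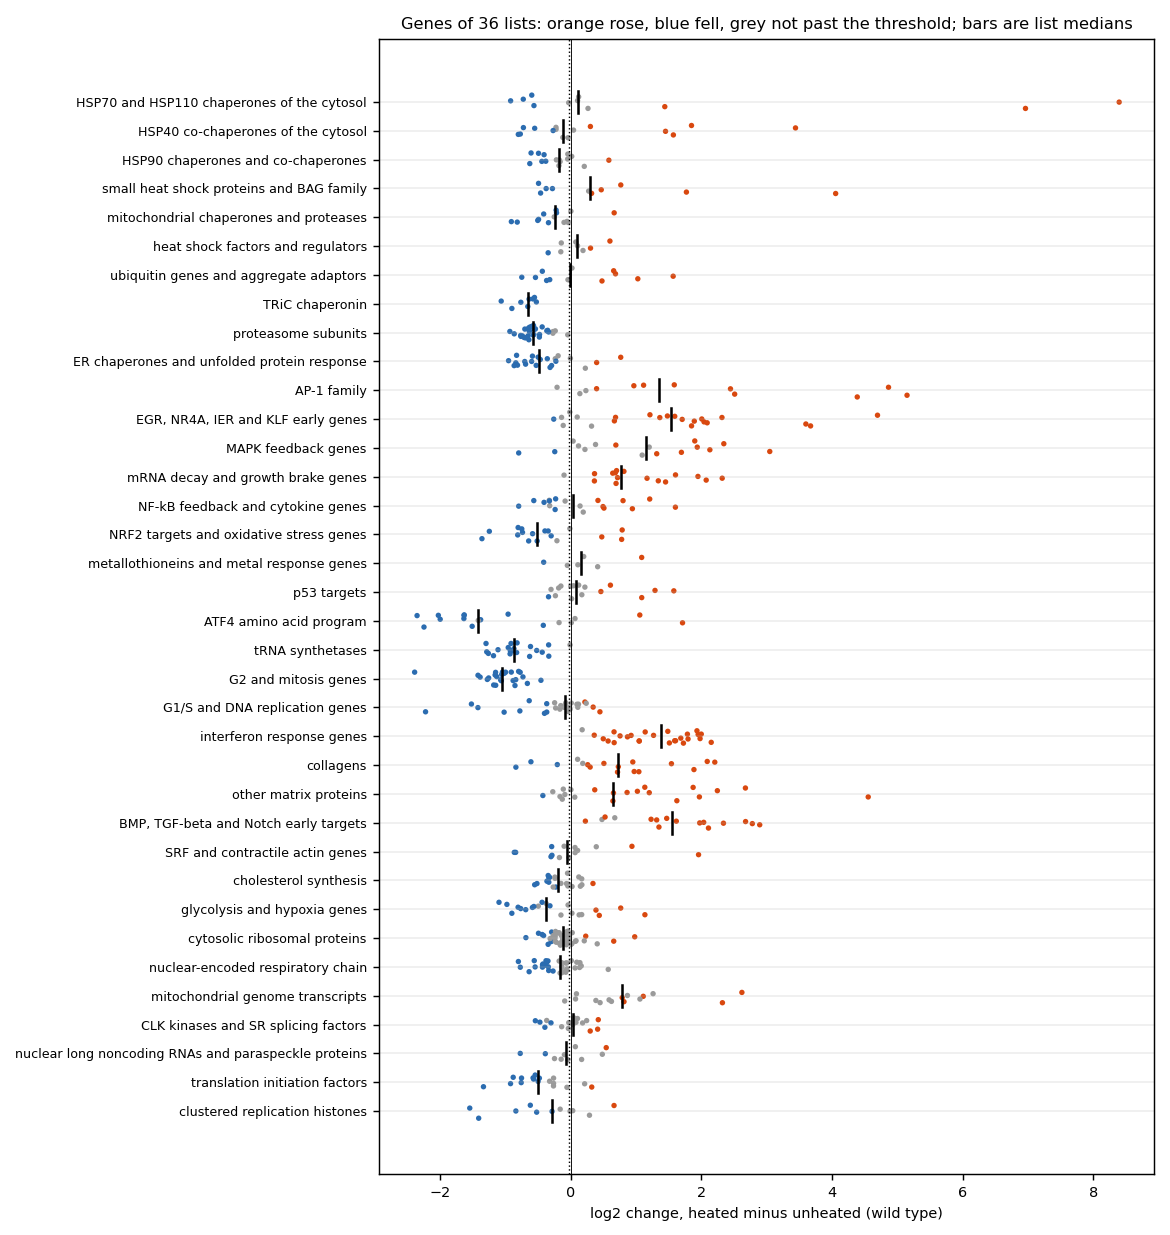
Log2 change with heat of each tested gene in 36 gene lists, 1 row per list, with a black bar at the list median and a dotted line at the median of all 12294 genes (-0.03). Early gene, interferon, collagen and matrix lists lie to the right, and G2, tRNA synthetase, TRiC and proteasome lists to the left.

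The inducible HSP70 pair showed the largest rises among protein-coding genes. Hspa1a (ENSMUSG00000091971, chromosome 17, 34969190 to 34972156, minus strand, GRCm38) stood at 1.78, 2.53 and 2.44 FPKM before heat and 1392, 994 and 927 FPKM after it, a log2 change of 8.39 ± 0.17, adjusted p = 7.43e-07. Its neighbour Hspa1b (ENSMUSG00000090877, chromosome 17, 34956436 to 34959238, minus strand) stood at 27.6, 29.9 and 28.0 FPKM before heat and 4387, 3424 and 3282 FPKM after it, a change of 6.96 ± 0.13, adjusted p = 5.06e-07. The groups of both genes lay far apart, and heated replicate 1 was highest for each. The 2 genes are near copies, identical at 296 of the 300 bases of their RefSeq promoters, and reads that fit both could be split between them by the counting, so the level of each is less certain than the joint rise. The pseudogene Gm8696 (ENSMUSG00000092557, chromosome 17, 34954328 to 34954712, minus strand) was listed at 0 in all 3 unheated libraries and stood at 71.7, 177 and 253 FPKM in the heated ones. Heated libraries alone brought it past the filter. It lies beyond the 3′ end of Hspa1b on the same strand, and whether its reads belong to a separate transcript was not tested.

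Rises were limited to a few HSP70 and HSP110 genes. In this list 3 of 11 tested genes rose and 4 fell, with a median log2 change of 0.10 (with equal sums or quantile scaling the median turned to -0.09 and -0.14), beside 23.9% of all genes that rose and 26.2% that fell. Hsph1, the inducible HSP110 that exchanges nucleotide on HSP70, stood at 64.8, 55.1 and 53.1 FPKM before heat and 296, 119 and 110.3 FPKM after it, a log2 change of 1.44 ± 0.35, adjusted p = 0.0121, with heated replicate 1 well above the other heated libraries. Hspa8, the constitutive HSP70 and the most abundant member before heat, stood at 507, 536 and 532 FPKM before heat and 644, 666 and 584 FPKM after it and did not pass the test (0.26 ± 0.10, adjusted p = 0.0537), although its groups did not overlap. The HSP110 relatives Hspa4 (-0.73) and Hspa4l (-0.92) fell, as did Hspa13 (-0.60) and Hspa14 (-0.56, and -0.37 without both libraries numbered 1). Hspa2, Hspa12a and Hspa12b lay between -0.03 and 0.12 with groups that overlap.

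Promoter sequences from RefSeq (GRCm38.p6, 250 bases before to 50 after the start, 8672 of the 12294 genes matched) show where letters of a heat shock element lie. The 8 genes printed were chosen, with their values known, from genes that rose and hold a match. Hsph1 holds 3 matches in its promoter, of which only the first is printed. The runs below are written 5′ to 3′ on the strand of the gene, with capitals for each match to GAANNTTC or TTCNNGAA, the shortest pair of inverted GAA units, and the first 2 give the whole 250 bases before the start.
Hspa1a, chr17:34972157-34972406, minus strand: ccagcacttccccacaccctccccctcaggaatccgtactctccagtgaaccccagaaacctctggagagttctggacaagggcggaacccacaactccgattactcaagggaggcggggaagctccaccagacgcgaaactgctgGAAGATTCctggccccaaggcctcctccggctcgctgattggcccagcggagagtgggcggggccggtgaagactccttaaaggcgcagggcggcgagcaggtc
Hspb1, chr5:135887669-135887918, plus strand: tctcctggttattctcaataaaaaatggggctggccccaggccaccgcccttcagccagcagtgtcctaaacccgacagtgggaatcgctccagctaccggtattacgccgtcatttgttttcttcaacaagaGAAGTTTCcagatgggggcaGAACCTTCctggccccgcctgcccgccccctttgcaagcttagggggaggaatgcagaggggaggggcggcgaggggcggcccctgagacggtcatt
Hsph1, chr5:149636350-149636381, minus strand: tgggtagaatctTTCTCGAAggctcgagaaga
Hspe1, chr1:55088047-55088088, plus strand: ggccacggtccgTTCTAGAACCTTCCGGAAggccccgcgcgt
Dnaja1, chr4:40722332-40722363, plus strand: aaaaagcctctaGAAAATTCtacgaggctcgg
Dnaja4, chr9:54699457-54699526, plus strand: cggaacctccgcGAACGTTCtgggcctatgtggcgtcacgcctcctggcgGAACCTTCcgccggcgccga
Dnajb4, chr3:152193840-152193871, minus strand: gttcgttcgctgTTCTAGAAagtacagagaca
Zfand2a, chr5:139484668-139484699, minus strand: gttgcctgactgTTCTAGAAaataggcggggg
A match in the 300 bases, on either strand (the pair reads the same on both), was found in 13.4% of all matched genes, in 14.3% of those that rose at least 2-fold and in 15.2% of those that fell at least 2-fold. Among chaperones of the HSP70, HSP40, HSP90, small HSP and mitochondrial lists it was found in 12 of the 13 promoters of genes that rose, Dnajb1 being the one without it, and in 5 of the 39 promoters of genes that did not rise (Chordc1, Cdc37, Fkbp4, Hspd1 and Clpp). The 3-unit element, which adds 1 more unit and so contains the pair, was held by 48 promoters, or 0.554%, among them Hsph1, Dnajb6, Hspe1, Chordc1 and Hspd1. A match describes letters in this window and does not show binding.

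Of HSP40 genes 5 of 15 tested genes rose and 5 fell, with a median log2 change of -0.12, beside 23.9% and 26.2% of all genes. Dnajb1, the main heat-inducible HSP40, stood at 19.7, 22.4 and 23.5 FPKM before heat and 320.0, 217 and 216 FPKM after it, a log2 change of 3.44 ± 0.16, adjusted p = 2.64e-05. Dnajb4 stood at 7.52, 5.97 and 6.42 FPKM before heat and 40.4, 23.5 and 19.3 FPKM after it (1.85 ± 0.25, adjusted p = 0.000968). Dnaja4 stood at 1.91, 2.38 and 2.01 FPKM before heat and 10.7, 6.45 and 7.86 FPKM after it (1.57 ± 0.16, adjusted p = 0.000372). Dnaja1, a farnesylated HSP40 that is abundant in unstressed cells, stood at 37.3, 34.0 and 34.0 FPKM before heat and 128, 87.5 and 82.8 FPKM after it (1.45 ± 0.16, adjusted p = 0.00046). In all 4 genes every heated library exceeded every unheated one and heated replicate 1 was highest. Dnajb6, which suppresses aggregation, rose by less (0.30 ± 0.06, adjusted p = 0.00639). Dnajb14 (-0.80), the ribosome-bound Dnajc2 (-0.72), Dnajc21 (-0.77), Dnaja2 (-0.55) and the vesicle protein Dnajc5 (-0.27) fell. Without both libraries numbered 1, 8 members fell, and with equal sums 10.

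All 4 tested small heat shock proteins and the co-chaperone Bag3 rose. In this list 5 of 10 tested genes rose and 4 fell, with a median log2 change of 0.30. Hspb1, which holds unfolding proteins and caps actin filaments, stood at 98.4, 85.1 and 81.9 FPKM before heat and 2225, 1273 and 1144 FPKM after it, a change of 4.05 ± 0.24, adjusted p = 4.65e-05. Bag3, which links HSP70 to small HSPs and to autophagy of aggregates, stood at 36.7, 41.3 and 40.1 FPKM before heat and 194, 119 and 110.0 FPKM after it (1.77 ± 0.20, adjusted p = 0.000519). Hspb8, the partner of Bag3, stood at 67.8, 69.7 and 69.5 FPKM before heat and 152, 114 and 95.0 FPKM after it (0.77 ± 0.16, adjusted p = 0.00638), and Hspb6 (0.47) and Cryab (0.32) rose by less. The first 3 were highest in heated replicate 1. Bag1, Bag2, Bag4 and Bag5 fell (log2 changes -0.49 to -0.28), and Bag6 stood at 0.27 (adjusted p = 0.0658). The fall of Bag1 was not called without heated replicate 3, and that of Bag5 was not called without replicate 2 of either group, unheated replicate 1 or heated replicate 3, at log2 changes of -0.25 to -0.56 over the left-out libraries of both genes. With equal sums 3 of the 5 rises were called.

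**Figure D2:**
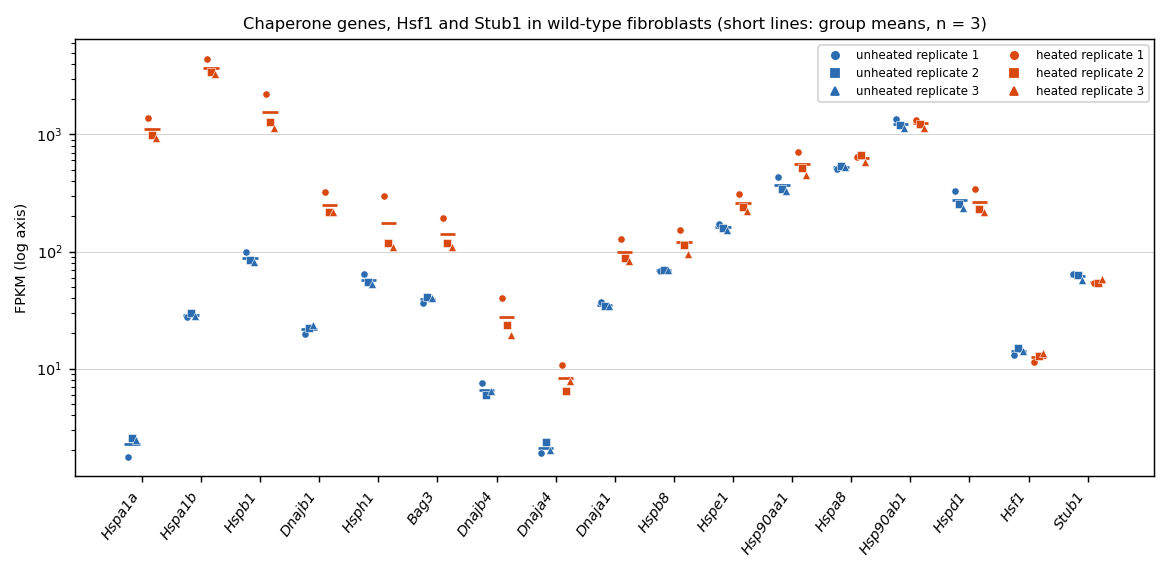
FPKM (log axis) of 15 chaperone genes, Hsf1 and Stub1 in each unheated (blue) and heated (orange) wild-type library, with a short line at the mean of each group (n = 3) and a marker shape per replicate number. Heated replicate 1 is the highest library for most of the genes that rose, and Hsp90ab1, Hspd1, Hsf1 and Stub1 overlap between groups.

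Of the HSP90 genes the inducible form rose, and several co-chaperones fell. Of the chaperones and their co-chaperones, 1 of 15 tested genes rose and 6 fell, with a median log2 change of -0.18, beside 23.9% and 26.2% of all genes. Hsp90aa1, the inducible HSP90, stood at 436, 345 and 326 FPKM before heat and 714, 518 and 447 FPKM after it, a change of 0.58 ± 0.19, adjusted p = 0.0391. This call was lost without any 1 of 4 libraries (unheated 2 or 3, heated 1 or 2), at log2 changes down to 0.39, and with equal sums, quantile scaling or no filter on low values (adjusted p = 0.164, 0.159 and 0.088). Hsp90ab1, the constitutive form, stood at 1365, 1194 and 1131 FPKM before heat and 1339.5, 1241 and 1143 FPKM after it, and its groups overlap (0.01 ± 0.12, adjusted p = 0.932). Co-chaperones that fell were Fkbp4 (-0.63) and Ppid (-0.61), immunophilins of steroid receptor complexes, Cacybp (-0.49, not called without heated replicate 2 or 3, with adjusted p up to 0.0699), Stip1, which bridges HSP70 and HSP90 (-0.44), Ahsa1, which activates the HSP90 ATPase (-0.41), and Fkbp5 (-0.38). The Ahsa1 call was lost without any 1 library but heated replicate 1 (log2 change -0.32 to -0.55). With equal sums 11 of the 15 fell.

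Several mitochondrial chaperones and proteases fell, and only Hspe1 rose. In this list 1 of 14 tested genes rose and 8 fell, with a median log2 change of -0.24 (5 fell without unheated replicate 2 or 3, or heated replicate 3). Hspe1, the lid of the mitochondrial chaperonin, stood at 171, 159 and 154 FPKM before heat and 309.5, 241 and 224 FPKM after it, a change of 0.66 ± 0.13, adjusted p = 0.00501. Hspd1, the chaperonin ring encoded beside it, stood at 331, 255 and 234 FPKM before heat and 344, 232 and 219.6 FPKM after it with overlapping groups (-0.06 ± 0.20, adjusted p = 0.831). Hspa9, the mitochondrial HSP70, stood at 147, 123 and 113 FPKM before heat and 68.6, 68.6 and 64.0 FPKM after it (-0.91 ± 0.11, adjusted p = 0.000597), and the proteases Htra2 (-0.82), Afg3l2 (-0.49, and -0.32 without both libraries numbered 1) and Clpp (-0.34) also fell. The calls of Clpp, Grpel1 and Yme1l1 were lost without single libraries: Clpp without any but unheated replicate 1, Grpel1 without replicate 2 or 3 of either group, Yme1l1 without any but heated replicate 2 (highest adjusted p 0.114, 0.0865 and 0.136), and Yme1l1 was at -0.14 without both libraries numbered 1.

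The RNA levels of Hsf1 and Hsf2, the factors that drive the response, did not pass the test. Hsf1 stood at 13.1, 14.95 and 14.1 FPKM before heat and 11.3, 12.9 and 13.7 FPKM after it (-0.15 ± 0.09, adjusted p = 0.216). Hsf2 stood at 7.04, 5.89 and 6.36 FPKM before heat and 7.29, 7.08 and 6.15 FPKM after it (0.08 ± 0.09, adjusted p = 0.521), and the groups of both overlap. In the list of factors and regulators 2 of 8 tested genes rose and 1 fell, beside 23.9% and 26.2% of all genes, with a median log2 change of 0.09 (-0.11 with equal sums). Sirt1, a deacetylase that prolongs HSF1 binding, stood at 17.6, 13.5 and 13.3 FPKM before heat and 25.2, 21.4 and 21.8 FPKM after it and rose (0.60 ± 0.12, adjusted p = 0.00568). Hsf4 rose as well (0.30 ± 0.08, adjusted p = 0.021) and Hspbp1 fell (-0.35 ± 0.11, adjusted p = 0.0327), but leaving out 1 library ended the Hsf4 call in 3 of 6 cases (unheated 2 or 3, heated 3) and the Hspbp1 call in 5 of 6 (all but heated 2), with adjusted p up to 0.0761 and 0.0877. Without both libraries numbered 1, Hspbp1 was at -0.19 and not called. Stub1 itself was not called (-0.15 ± 0.08, adjusted p = 0.132).

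Ubiquitin genes and adaptors moved both ways. Ubb, which encodes ubiquitin as head-to-tail repeats, stood at 443, 353 and 363 FPKM before heat and 584, 662 and 612 FPKM after it, a change of 0.68 ± 0.12, adjusted p = 0.00291. Rps27a, which encodes ubiquitin fused to a ribosomal protein, stood at 145, 99.2 and 107 FPKM before heat and 67.3, 87.9 and 83.4 FPKM after it and fell (-0.54 ± 0.16, adjusted p = 0.0285), a call that was lost without unheated replicate 1, heated replicate 1 or heated replicate 3 (log2 change -0.26 without both libraries numbered 1). Over the list of ubiquitin genes with adaptors that bring ubiquitin-tagged proteins to the proteasome or to autophagy, 5 of 12 tested genes rose and 5 fell, with a median log2 change of -0.01 (0.03 to 0.04 with median-of-ratios or quantile scaling), and 3 fell without unheated replicate 1 or heated replicate 3. Zfand2a stood at 16.4, 15.4 and 15.2 FPKM before heat and 53.2, 26.9 and 24.8 FPKM after it (1.03 ± 0.26, adjusted p = 0.0144), Zfand5 rose by 0.66 and Sqstm1, the autophagy receptor p62, by 0.48 on the log2 scale. Vcp, the ATPase that pulls tagged proteins apart, stood at 169, 135 and 126 FPKM before heat and 73.6, 94.6 and 85.6 FPKM after it and fell (-0.75 ± 0.14, adjusted p = 0.00384).

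Machines that fold or degrade proteins in the unstressed cell fell together. All 8 subunits of TRiC, the chaperonin of actin and tubulin, fell, with a median log2 change of -0.65. Cct6a stood at 157, 111 and 111 FPKM before heat and 53.6, 65.8 and 58.5 FPKM after it (-1.06 ± 0.15, adjusted p = 0.00133). Cct2, the most abundant subunit, stood at 299, 257 and 248 FPKM before heat and 174, 199 and 173 FPKM after it (-0.56 ± 0.11, adjusted p = 0.00452). Of proteasome subunits 0 of 31 tested genes rose and 27 fell, with a median log2 change of -0.58. Psmd6 stood at 66.1, 47.4 and 47.2 FPKM before heat and 26.1, 29.8 and 26.1 FPKM after it (-0.93 ± 0.14, adjusted p = 0.00159), Psmd11 changed by -0.87, Psmd2 by -0.77 and Psmd1 by -0.76. Nfe2l1, the factor that drives proteasome genes when the proteasome is blocked, also fell (-0.44 ± 0.07, adjusted p = 0.00214). The share of falls, 27 of 31 and 8 of 8, stands beside 26.2% of all genes.

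Chaperones of the endoplasmic reticulum (ER) fell as well. Of ER chaperones and unfolded protein response genes 2 of 22 tested genes rose and 16 fell, with a median log2 change of -0.48. Hspa5 (BiP), the ER HSP70, stood at 338, 254 and 249 FPKM before heat and 135, 156 and 139 FPKM after it, a change of -0.95 ± 0.13, adjusted p = 0.00125. Dnajc3 (-0.87), Sdf2l1 (-0.84) and Xbp1, the factor spliced in the unfolded protein response (-0.83), fell with groups apart. The 2 rises were those of Ddit3 (CHOP), a factor of prolonged ER stress (0.76 ± 0.18, adjusted p = 0.00958), and P4hb. P4hb, an ER disulfide isomerase that is also a subunit of collagen prolyl hydroxylase, changed by 0.40 ± 0.11, adjusted p = 0.0181, and the call was lost without replicate 2 or 3 of either group (log2 change 0.34 to 0.52). The promoters of these genes carry another element: CCAAT, 9 free bases, then CCACG was found on either strand in 8 of the 19 ER genes with a promoter and in 15 of all 8672 (0.173%). Each match contains a CCAAT box, itself found in 43.9% of all promoters and in 18 of the 19 ER genes. The letters are in capitals in Hspa5, Dnajc3 and Pdia6, the last chosen for its match (Pdia6 was not called, at -0.24 ± 0.11, adjusted p = 0.113).
Hspa5, chr2:34772020-34772048, plus strand: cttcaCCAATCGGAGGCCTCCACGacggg
Dnajc3, chr14:118937822-118937850, plus strand: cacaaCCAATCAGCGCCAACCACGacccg
Pdia6, chr12:17266486-17266514, plus strand: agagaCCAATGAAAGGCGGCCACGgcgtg

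After the HSP70 pair, the largest rises among protein-coding genes were those of the immediate early genes Atf3, Fos and Egr1. Among AP-1 genes, whose products pair to bind stress and growth response sites, 9 of 12 tested genes rose and 0 fell, with a median log2 change of 1.35. Some genes here and below reached the minimum of 1 FPKM in heated libraries alone, so that they entered only by being high there; their call was fixed by the filter and no p is given. Among AP-1 genes at the minimum in at least 1 library of each group, 8 of 11 rose. Atf3 (ENSMUSG00000026628, chromosome 1, 191170296 to 191218039, minus strand) stood at 4.89, 5.55 and 5.23 FPKM before heat and 416, 175 and 145 FPKM after it, a change of 5.15 ± 0.35, adjusted p = 7.92e-05. Fos stood at 2.16, 1.69 and 1.60 FPKM before heat and 96.3, 81.5 and 67.1 FPKM after it (4.86 ± 0.14, adjusted p = 5.15e-06). Jun stood at 18.4, 17.7 and 16.3 FPKM before heat and 443, 384 and 335 FPKM after it (4.38 ± 0.11, adjusted p = 2.72e-06). Fosb stood at 0.244, 0.377 and 0.339 FPKM before heat and 10.6, 5.68 and 4.44 FPKM after it, a difference of 2.51. Fosb is one of those let in by heated libraries alone. No heated library overlapped an unheated one in these 4 genes, and heated replicate 1 was highest in each. The EGR, NR4A, IER and KLF genes, other genes switched on within minutes, followed: 16 of 22 tested genes rose and 1 fell, with a median log2 change of 1.54 (14 of 20 rose among those at the minimum in both groups). The strongest of them were zinc finger factors and an orphan receptor. Egr1 stood at 10.7, 12.5 and 11.8 FPKM before heat and 381, 317 and 288 FPKM after it (4.70 ± 0.12, adjusted p = 2.43e-06). Egr2, let in by heated libraries alone, stood at 0.224, 0.391 and 0.166 FPKM before heat and 19.9, 14.3 and 9.99 FPKM after it, a difference of 3.60. Nr4a1, an orphan nuclear receptor, stood at 2.12, 3.44 and 1.87 FPKM before heat and 61.7, 40.1 and 30.8 FPKM after it (3.67 ± 0.26, adjusted p = 9.33e-05). Cyr61, a secreted matrix protein and the most abundant of this list, stood at 107, 103 and 94.5 FPKM before heat and 508, 338 and 288 FPKM after it (1.85 ± 0.20, adjusted p = 0.000404). Outside these lists, Phlda1, a nuclear early protein, stood at 7.28, 7.23 and 5.51 FPKM before heat and 215, 165 and 163 FPKM after it (4.56 ± 0.14, adjusted p = 6.44e-06). Dlx2, a homeobox factor, stood at 1.71, 1.81 and 1.72 FPKM before heat and 35.6, 20.4 and 19.2 FPKM after it (3.19 ± 0.21, adjusted p = 7.05e-05).

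Inhibitors that end such signals rose too. Of the genes for MAP kinase feedback 8 of 16 tested genes rose and 2 fell, with a median log2 change of 1.15 (0.62 without heated replicate 1 and 0.66 without both libraries numbered 1), and 7 of the 15 at the minimum in both groups rose. The falls numbered 1 without any 1 of replicates 2 and 3 of either group. Dusp1, a phosphatase of the stress kinases p38 and JNK, stood at 17.1, 19.3 and 14.8 FPKM before heat and 218, 137 and 107 FPKM after it (3.05 ± 0.24, adjusted p = 0.000134). Dusp4 stood at 1.16, 1.10 and 0.808 FPKM before heat and 17.0, 7.03 and 6.41 FPKM after it (2.34 ± 0.32, adjusted p = 0.00105). Spry2 stood at 6.20, 7.13 and 6.16 FPKM before heat and 37.1, 28.9 and 29.7 FPKM after it (2.13 ± 0.11, adjusted p = 3.25e-05). Errfi1, which blocks the EGF receptor, stood at 7.14, 6.98 and 6.64 FPKM before heat and 40.1, 25.1 and 24.9 FPKM after it (1.94 ± 0.18, adjusted p = 0.000221). In the list of mRNA decay and growth brake genes, 15 of 16 tested genes rose and 0 fell, with a median log2 change of 0.76. Gadd45g (2.32), Gadd45b (2.07), Zfp36l1 (1.95) and Zfp36, which clears short-lived mRNAs (1.60), had the largest changes among them. Early targets of BMP, TGF-beta and Notch signals moved the same way: 14 of 16 tested genes rose and 0 fell, with a median log2 change of 1.54 (11 of 13 rose among those at the minimum in both groups). Hes1, the Notch target, stood at 5.39, 4.67 and 4.05 FPKM before heat and 63.7, 37.5 and 29.0 FPKM after it (2.89 ± 0.26, adjusted p = 0.000215). Sox9 stood at 3.18, 3.49 and 3.68 FPKM before heat and 35.4, 26.1 and 27.8 FPKM after it (2.78 ± 0.12, adjusted p = 1.71e-05). Nog, which binds and blocks BMPs and was let in by heated libraries alone, stood at 0.674, 0.965 and 0.361 FPKM before heat and 20.4, 6.795 and 6.001 FPKM after it, a difference of 2.68. Heated replicate 1 was highest in these 3 genes, and the groups lay apart. Smad7, the inhibitor of TGF-beta receptors, stood at 5.64, 6.51 and 5.67 FPKM before heat and 58.7, 27.8 and 24.0 FPKM after it (2.34 ± 0.30, adjusted p = 0.000822). Id3, a BMP target that blocks DNA binding of helix-loop-helix factors, stood at 129.8, 118 and 138 FPKM before heat and 353, 283 and 276 FPKM after it (1.23 ± 0.12, adjusted p = 0.000285).

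**Figure D3:**
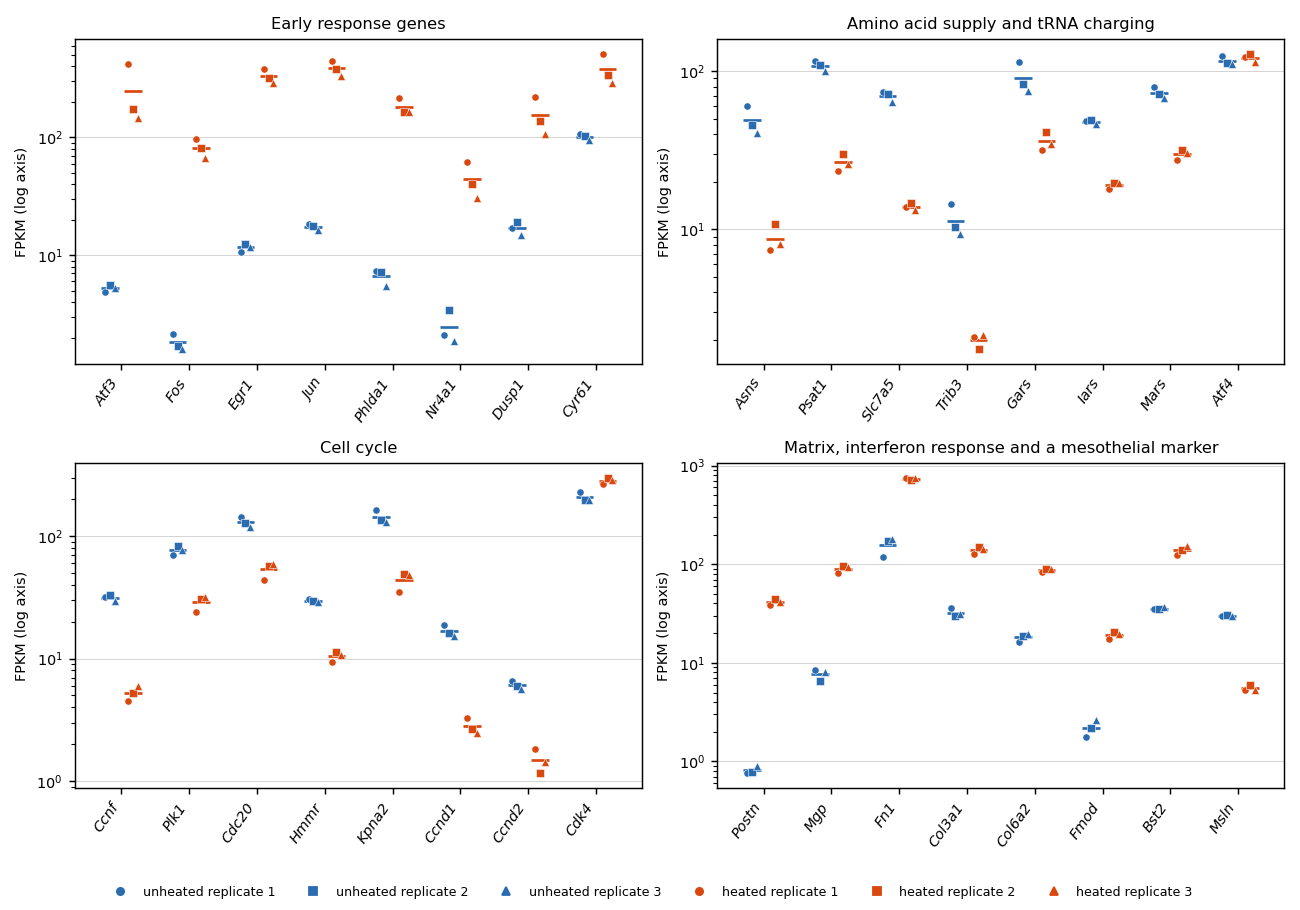
FPKM (log axis) of 32 genes in 4 panels, in each unheated (blue) and heated (orange) wild-type library, with a line at each group mean (n = 3) and a marker shape per replicate number. Early genes, matrix genes and Bst2 are higher in every heated library, amino acid, G2 and D cyclin genes and Msln are lower in every heated library, and Atf4 overlaps between groups.

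Of NF-kB feedback and cytokine genes 7 of 18 tested genes rose and 6 fell, beside 23.9% and 26.2% of all genes. Among the 17 at the minimum in both groups, 7 rose and 5 fell, with a median log2 change of 0.14. The median log2 change of the list was 0.03 (-0.19 with equal sums, when 4 rose, and -0.04 with quantile scaling). The falls numbered 2 without unheated replicate 2 or heated replicate 3, and 3 without unheated replicate 1 or heated replicate 2. Nfkbiz, an inducible inhibitor and cofactor of NF-kB, stood at 2.18, 2.75 and 2.59 FPKM before heat and 11.4, 8.97 and 8.69 FPKM after it (1.60 ± 0.12, adjusted p = 0.000102). The deubiquitinase Tnfaip3 stood at 3.92, 3.33 and 3.33 FPKM before heat and 8.80, 6.09 and 6.01 FPKM after it (0.80 ± 0.14, adjusted p = 0.0033). Hbegf, an EGF receptor ligand, rose (1.21 ± 0.24, adjusted p = 0.00539). Ccl2, the chemokine with the highest level of the list, stood at 101, 95.7 and 104 FPKM before heat and 77.3, 66.7 and 59.2 FPKM after it and fell (-0.57 ± 0.11, adjusted p = 0.00416), while the chemokine Cxcl5 rose (0.94 ± 0.12, adjusted p = 0.000745).

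NRF2 is a factor of the oxidative stress response. In a list of its targets and other oxidative stress genes, 3 of 17 tested genes rose and 12 fell, with a median log2 change of -0.51. Gclm, a subunit of the enzyme that starts glutathione synthesis, stood at 22.8, 19.01 and 18.3 FPKM before heat and 7.78, 7.04 and 6.71 FPKM after it (-1.36 ± 0.10, adjusted p = 0.000102). Gsr, which regenerates glutathione, stood at 38.9, 42.5 and 37.0 FPKM before heat and 16.9, 15.9 and 15.3 FPKM after it (-1.25 ± 0.08, adjusted p = 5.72e-05), and Srxn1 (-0.81) and Prdx6 (-0.81) fell by less. The 3 genes that rose, named after their values were seen, were Hmox1, which breaks down heme (0.79), Osgin1 (0.78) and Nqo1 (0.47). Mt1, a metallothionein, stood at 88.4, 80.4 and 85.6 FPKM before heat and 190.2, 188 and 165 FPKM after it (1.09 ± 0.09, adjusted p = 0.000133) and was the one rise among 6 metal response genes, where Ftl1, the ferritin light chain, fell (-0.41) and Fth1, the heavy chain, overlapped between groups (0.20). Of p53 targets 5 of 16 tested genes rose and 1 fell, beside 23.9% and 26.2% of all genes. The median log2 change of these targets was 0.08 (-0.14 with equal sums, when 6 fell, and 0.18 without unheated replicate 1), and 0 fell without unheated replicate 2 or heated replicate 3. Pmaip1 (NOXA), which promotes cell death, stood at 1.39, 0.830 and 0.623 FPKM before heat and 5.82, 4.31 and 4.22 FPKM after it (1.58 ± 0.17, adjusted p = 0.000448). Trp53inp1 stood at 4.13, 3.95 and 4.66 FPKM before heat and 13.2, 10.3 and 12.01 FPKM after it (1.29 ± 0.10, adjusted p = 0.000134). The death receptor Fas stood at 3.10, 2.58 and 3.43 FPKM before heat and 7.31, 7.62 and 7.68 FPKM after it (1.09 ± 0.09, adjusted p = 0.000194). Without both libraries numbered 1, 9 of these 16 rose.

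Genes that supply amino acids had the lowest median of the 36 lists. Of the ATF4 program, which makes and imports amino acids, 2 of 17 tested genes rose and 11 fell, with a median log2 change of -1.42. Asns (ENSMUSG00000029752, chromosome 6, 7675169 to 7693254, minus strand), asparagine synthetase, stood at 60.3, 45.9 and 40.5 FPKM before heat and 7.41, 10.8 and 8.04 FPKM after it, a change of -2.35 ± 0.18, adjusted p = 0.000103. Slc7a5, the large neutral amino acid transporter, stood at 73.7, 72.3 and 63.6 FPKM before heat and 13.8, 14.7 and 13.2 FPKM after it (-2.25 ± 0.08, adjusted p = 9.63e-06). Trib3 stood at 14.4, 10.3 and 9.29 FPKM before heat and 2.07, 1.75 and 2.14 FPKM after it (-2.03 ± 0.15, adjusted p = 0.000107). Psat1, of serine synthesis, stood at 116, 109.8 and 100.2 FPKM before heat and 23.4, 30.0 and 26.0 FPKM after it (-1.999 ± 0.11, adjusted p = 3.56e-05). All heated libraries lay below all unheated ones in these 4 genes, while the RNA of Atf4 itself stood at 125, 112 and 111 FPKM before heat and 123, 128 and 114 FPKM after it with groups that overlap (0.06 ± 0.09, adjusted p = 0.561). The 2 genes of the list that rose, named after their values were seen, were Cebpb (1.71) and Ddit4, an inhibitor of the growth kinase mTORC1 (1.06). Enzymes that charge tRNAs with amino acids fell in 19 of 20 cases, with a median log2 change of -0.88 and 0 rises. The members of the list with the largest falls charge glycine, isoleucine and methionine. Gars stood at 115, 82.9 and 75.3 FPKM before heat and 31.9, 41.3 and 34.8 FPKM after it (-1.30 ± 0.17, adjusted p = 0.000881). Iars stood at 48.2, 49.5 and 46.5 FPKM before heat and 18.1, 19.7 and 19.6 FPKM after it (-1.29 ± 0.07, adjusted p = 3.57e-05). Mars stood at 79.3, 71.5 and 68.0 FPKM before heat and 27.6, 31.7 and 30.2 FPKM after it (-1.26 ± 0.09, adjusted p = 8.44e-05). Of translation initiation factors 1 of 17 tested genes rose and 10 fell, with a median log2 change of -0.50. Eif5a, which helps ribosomes past difficult stretches, stood at 464, 420.2 and 401 FPKM before heat and 157, 178 and 172 FPKM after it (-1.34 ± 0.10, adjusted p = 9.04e-05). Eif4ebp1, an inhibitor of cap binding, stood at 41.4, 49.96 and 45.3 FPKM before heat and 21.7, 24.3 and 24.7 FPKM after it (-0.92 ± 0.09, adjusted p = 0.000313).

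All 26 tested genes of G2 and mitosis fell, with a median log2 change of -1.05, and in all 26 the groups did not overlap, beside 26.2% of all genes that fell and 61.3% whose groups did not overlap. Ccnf (ENSMUSG00000072082, chromosome 17, 24223232 to 24251409, minus strand), a cyclin that serves a ubiquitin ligase, had the largest fall among protein-coding genes: it stood at 32.0, 32.9 and 29.7 FPKM before heat and 4.53, 5.20 and 5.98 FPKM after it (-2.39 ± 0.10, adjusted p = 1.51e-05). Hmmr, a spindle protein, stood at 30.6, 29.6 and 28.8 FPKM before heat and 9.33, 11.3 and 10.8 FPKM after it (-1.42 ± 0.08, adjusted p = 4.65e-05). The mitotic kinase Plk1 stood at 70.0, 82.8 and 78.0 FPKM before heat and 24.1, 30.8 and 31.9 FPKM after it (-1.39 ± 0.12, adjusted p = 0.000199). Cdc20, which starts anaphase, stood at 144, 128 and 119.6 FPKM before heat and 44.2, 56.8 and 59.6 FPKM after it (-1.28 ± 0.13, adjusted p = 0.000334). In these 4 genes the heated libraries lay close together and far below the unheated ones. Outside the list, the nuclear import receptor Kpna2 stood at 166, 136 and 131 FPKM before heat and 35.4, 49.1 and 48.5 FPKM after it (-1.69 ± 0.15, adjusted p = 0.000206). A CCAAT box was found in 20 of the 21 promoters of this list, against 43.9% of all. Genes of G1, S phase and replication were mixed: 3 of 28 tested genes rose and 9 fell, with a median log2 change of -0.09 (20 fell with equal sums). Within it the D cyclin Ccnd1 stood at 18.7, 16.3 and 15.2 FPKM before heat and 3.28, 2.66 and 2.49 FPKM after it (-2.22 ± 0.11, adjusted p = 2.79e-05). Ccnd2 stood at 6.56, 5.97 and 5.67 FPKM before heat and 1.83, 1.16 and 1.43 FPKM after it (-1.52 ± 0.12, adjusted p = 0.000121). Rrm2, of nucleotide reduction, stood at 74.6, 68.6 and 65.6 FPKM before heat and 24.3, 27.4 and 24.5 FPKM after it (-1.42 ± 0.08, adjusted p = 4.43e-05), while Cdk4, the kinase partner of D cyclins, rose (0.45 ± 0.10, adjusted p = 0.00733). Of histone genes, clustered and variant, 1 of 11 tested genes rose and 6 fell, with a median log2 change of -0.29. H2afx (-1.55) and Hist1h4i (-1.41) fell most and the variant H3f3a rose (0.66). Messages of clustered histones mostly end without a poly(A) tail, so libraries made by poly(A) capture hold them only in part.

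Interferon response genes rose almost without exception: 25 of 26 tested genes rose and 0 fell, with a median log2 change of 1.38 (22 of 23 rose among those at the minimum in both groups). Bst2 (tetherin), which holds budding viruses at the membrane and has the highest mean level of the list, stood at 35.1, 34.8 and 36.5 FPKM before heat and 123, 139 and 154 FPKM after it (1.93 ± 0.10, adjusted p = 2.79e-05). Usp18, which removes ISG15 and dampens the interferon receptor, stood at 1.57, 1.56 and 1.92 FPKM before heat and 9.68, 10.9 and 12.2 FPKM after it (2.15 ± 0.10, adjusted p = 2.79e-05). Mx2, annotated as a polymorphic pseudogene and let in by heated libraries alone, stood at 0.316, 0.353 and 0.625 FPKM before heat and 4.32, 4.51 and 5.30 FPKM after it, a difference of 1.997. Irf7, a factor of interferon transcription, stood at 2.35, 3.14 and 4.23 FPKM before heat and 13.8, 15.6 and 17.1 FPKM after it (1.98 ± 0.16, adjusted p = 0.000155). Oas1a, a sensor of double-stranded RNA, stood at 1.75, 2.03 and 2.72 FPKM before heat and 10.1, 11.6 and 11.8 FPKM after it (1.95 ± 0.12, adjusted p = 5.99e-05). Groups lay apart in all 5, and heated replicate 3 was the highest library in each. Of the 20 genes with a promoter, 13 held GAAANNGAAA or TTTCNNTTTC, the core of an interferon element, against 3.48% of all promoters, 8.7% of genes that rose at least 2-fold and 2.07% of genes that fell at least 2-fold. The 6 with more than 1 match are printed with the matches in capitals, and 4 of them were chosen for display by their matches alone.
Ifit1, chr19:34640777-34640821, plus strand: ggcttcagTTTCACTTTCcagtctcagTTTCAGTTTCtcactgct
Ifit3, chr19:34583365-34583424, plus strand: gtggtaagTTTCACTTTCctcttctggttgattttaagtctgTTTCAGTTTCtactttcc
Isg15, chr4:156200867-156200904, minus strand: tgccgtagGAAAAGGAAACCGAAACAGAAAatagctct
Oas1a, chr5:120907522-120907553, minus strand: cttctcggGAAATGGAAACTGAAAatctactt
Bst2, chr8:71537579-71537610, minus strand: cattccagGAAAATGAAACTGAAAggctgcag
Gbp3, chr3:142559991-142560022, plus strand: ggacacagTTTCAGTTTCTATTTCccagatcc
All 4 additional genes rose. Ifit1, which binds viral RNA ends, stood at 16.2, 17.0 and 16.5 FPKM before heat and 21.3, 24.9 and 29.8 FPKM after it (0.57 ± 0.12, adjusted p = 0.00596). Ifit3 stood at 5.82, 4.28 and 6.75 FPKM before heat and 10.3, 13.8 and 13.7 FPKM after it (1.05 ± 0.16, adjusted p = 0.00195). Isg15, a ubiquitin-like protein, stood at 28.0, 38.3 and 41.4 FPKM before heat and 93.2, 103 and 134 FPKM after it (1.59 ± 0.18, adjusted p = 0.000508). Gbp3, a GTPase, stood at 1.71, 2.22 and 2.08 FPKM before heat and 8.46, 9.18 and 10.4 FPKM after it (1.79 ± 0.11, adjusted p = 4.49e-05).

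Collagen and matrix genes rose. Of collagens 12 of 17 tested genes rose and 3 fell, with a median log2 change of 0.72, and of other matrix proteins 13 of 21 tested genes rose and 1 fell, with a median log2 change of 0.65 (6 fell with equal sums, and 3 without both libraries numbered 1). Among genes at the minimum in both groups, 11 of 16 collagens and 12 of 20 other matrix genes rose. Postn (ENSMUSG00000027750, chromosome 3, 54361109 to 54391037, plus strand), a matrix protein of growing and healing connective tissue, stood at 0.766, 0.775 and 0.898 FPKM before heat and 38.7, 44.3 and 41.8 FPKM after it, a difference of 4.55, and was let in by heated libraries alone. Mgp, an inhibitor of calcification, stood at 8.55, 6.54 and 8.01 FPKM before heat and 80.7, 95.9 and 94.3 FPKM after it (3.39 ± 0.11, adjusted p = 7.64e-06). Fibronectin (Fn1) stood at 117, 173 and 180.4 FPKM before heat and 746, 712 and 744 FPKM after it (2.24 ± 0.17, adjusted p = 0.000102). The collagen-binding proteoglycan Fmod stood at 1.77, 2.19 and 2.62 FPKM before heat and 17.5, 20.6 and 19.7 FPKM after it (2.67 ± 0.12, adjusted p = 1.71e-05). Every heated library exceeded every unheated one in these genes, and heated replicate 1 was not the highest for Postn, Mgp and Fmod. Col3a1 stood at 35.8, 29.6 and 31.6 FPKM before heat and 128, 149.9 and 144 FPKM after it (2.09 ± 0.10, adjusted p = 2.64e-05). Col6a2 stood at 16.1, 18.7 and 19.8 FPKM before heat and 83.9, 89.0 and 88.5 FPKM after it (2.20 ± 0.09, adjusted p = 1.45e-05). Col6a3 stood at 1.38, 1.56 and 1.78 FPKM before heat and 9.08, 7.63 and 8.81 FPKM after it (1.89 ± 0.10, adjusted p = 3.27e-05). Col1a1, the most abundant collagen, stood at 1088, 820.2 and 803 FPKM before heat and 1135, 1379 and 1315 FPKM after it, and its call (0.51 ± 0.15, adjusted p = 0.0289) was lost with equal sums (adjusted p = 0.11), with quantile scaling (0.112) and without replicate 2 or 3 of either group (0.0853 to 0.102, with log2 changes from 0.43). Sparc rose by 0.37, and its call was lost without the same libraries (highest adjusted p 0.101). Plxdc2, a membrane protein, stood at 0.594, 1.11 and 1.23 FPKM before heat and 18.3, 13.9 and 16.3 FPKM after it (3.12 ± 0.15, adjusted p = 2.79e-05).

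Some markers of cell types changed as well. Of 10 fibroblast markers, 7 passed the filter and 4 of them rose: Pdgfra (1.07), Col1a2 (0.73), Pdgfrb (0.71) and Col1a1, whose call depended on single libraries. The other tested markers, Vim, S100a4 and Fbn1, were not called. Groups overlapped for Vim and S100a4, while Fbn1 stood at -0.28 and was called lower without heated replicate 1. The summed level of the fibroblast list was 1442 to 1846 FPKM unheated and 1761 to 2071 FPKM heated. Of 6 mesothelial markers, Msln and Krt19 passed the filter and both fell: Msln stood at 29.7, 30.4 and 30.1 FPKM before heat and 5.37, 5.97 and 5.33 FPKM after it (-2.25 ± 0.07, adjusted p = 6.44e-06). Krt19 stood at 16.5, 14.0 and 11.9 FPKM before heat and 3.60, 4.26 and 3.33 FPKM after it (-1.67 ± 0.13, adjusted p = 0.000118). Their list summed to 42.1 to 46.3 FPKM unheated and 8.82 to 10.3 FPKM heated, and 3 of its genes, Wt1, Lrrn4 and Upk1b, were below 0.1 FPKM in all 6 libraries. Of 10 macrophage and blood markers, Cd68, a lysosomal protein, alone passed the filter and rose, and 6 of the 10 were below 0.1 FPKM throughout. It stood at 1.72, 2.60 and 2.92 FPKM before heat and 15.4, 12.6 and 12.2 FPKM after it (2.09 ± 0.15, adjusted p = 0.0001). Des, an intermediate filament of muscle, was the one tested muscle marker, let in by heated libraries alone, at a difference of 0.57. Nes, an intermediate filament of progenitor cells, fell (-1.42 ± 0.10, adjusted p = 8.88e-05) and Map2 rose (0.75 ± 0.08, adjusted p = 0.000487) among 8 neural markers, whose sum was 29.7 to 35.6 FPKM unheated and 22.1 to 22.6 FPKM heated. Sums of the epithelial list were 0.632 to 0.961 FPKM unheated and 1.66 to 4.05 FPKM heated, of the endothelial list 2.26 to 3.11 and 3.45 to 3.94 FPKM, of the muscle list 1.01 to 1.29 and 1.82 to 2.48 FPKM, and of the pluripotent list 0.35 to 0.386 and 0.285 to 0.699 FPKM. In bulk RNA, fewer cells of a type and less RNA per cell cannot be told apart, and the part of these markers in the changes was not tested. Acta2, the actin of contractile fibroblasts, stood at 35.7, 27.0 and 28.8 FPKM before heat and 49.6, 70.0 and 58.8 FPKM after it (0.94 ± 0.15, adjusted p = 0.00203). Myl9 stood at 3.71, 3.69 and 3.89 FPKM before heat and 14.5, 19.5 and 18.9 FPKM after it (1.96 ± 0.11, adjusted p = 4.43e-05), whereas Actb (-0.86 ± 0.12, adjusted p = 0.0013) and Tpm1 (-0.84 ± 0.11, adjusted p = 0.000747) fell. Their list of SRF and actin genes had 2 rises and 5 falls among 14, beside 23.9% and 26.2% of all genes (8 falls with equal sums, and 2 or 3 without any 1 of replicates 2 and 3 of either group).

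Many genes of energy supply fell, in lists that stand beside 26.2% of all genes that fell and 23.9% that rose. Of glycolysis and hypoxia genes 4 of 21 tested genes rose and 10 fell, with a median log2 change of -0.38: Pgam1 stood at 311, 284 and 276 FPKM before heat and 128, 143 and 134 FPKM after it (-1.10 ± 0.09, adjusted p = 0.000131), Eno1 changed by -0.98 and Pgk1 by -0.90, while Vegfa, the endothelial growth factor, rose (1.13 ± 0.26, adjusted p = 0.0102, and 0.75 without both libraries numbered 1). Of nuclear-encoded respiratory chain genes, 15 of 33 fell and 0 rose (26 fell with equal sums, 7 without heated replicate 3 and 10 without unheated replicate 2, and 5 rose without both libraries numbered 1), and Cyc1, of complex III, stood at 109, 110.1 and 111 FPKM before heat and 58.1, 67.8 and 62.4 FPKM after it (-0.80 ± 0.08, adjusted p = 0.000299). Cytosolic ribosomal protein genes mostly did not pass the test: 3 of 46 tested genes rose and 7 fell, beside 23.9% and 26.2% of all genes, with a median log2 change of -0.12. Among the 45 at the minimum in both groups, 2 rose and 7 fell. With equal sums 32 of these 46 fell, 12 fell without both libraries numbered 1, 4 without unheated replicate 2 or 3 and 3 without heated replicate 3, so the count of falls depends on the scaling and on single libraries. Of cholesterol synthesis genes 8 of 22 fell and 1 rose, beside 26.2% and 23.9% of all genes (16 fell with equal sums, and 5 rose without both libraries numbered 1). Fdps, which makes farnesyl diphosphate, stood at 3.54, 3.995 and 3.74 FPKM before heat and 2.27, 2.34 and 2.37 FPKM after it (-0.52 ± 0.08, adjusted p = 0.00185). Of mitochondrial genome transcripts 5 of 15 tested genes rose and 0 fell, with a median log2 change of 0.79 (3 rose with equal sums, 8 without unheated replicate 3 and 9 without both libraries numbered 1), beside 23.9% of all genes that rose. The median was 0.48 without unheated replicate 1 and 0.49 with quantile scaling. The ribosomal RNAs mt-Rnr1 (96.2, 128 and 144 FPKM before heat and 669, 810.4 and 772 FPKM after it; 2.62 ± 0.16, adjusted p = 5.01e-05) and mt-Rnr2 (205, 245 and 297 FPKM before heat and 991, 1379 and 1378 FPKM after it; 2.32 ± 0.18, adjusted p = 0.000128) had the largest changes. Unheated replicate 1 was lowest for mt-Co1 (1278, 2424 and 2710.2 FPKM before heat and 3512, 3789 and 3434 FPKM after it), whose call (0.81 ± 0.28, adjusted p = 0.0438) was lost without unheated replicate 2 or any 1 heated library (highest adjusted p 0.104), with log2 changes from 0.48 to 1.02.

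Ribosomal and some noncoding RNAs took a larger share of fragments after heat. Mitochondrial ribosomal RNA made up 0.0421% to 0.0641% of fragments unheated and 0.221% to 0.297% heated. Gm26917, a long noncoding RNA gene (ENSMUSG00000097971, chromosome 17, 39843013 to 39846341, plus strand), stood at 51.1, 33.9 and 43.7 FPKM before heat and 1293, 1589.9 and 1849 FPKM after it (5.17 ± 0.18, adjusted p = 8.12e-06), or 0.0117% to 0.0172% and 0.431% to 0.627% of fragments. The small RNA genes Gm22107 (0.635, 1.02 and 3.30 FPKM before heat and 58.0, 41.3 and 32.3 FPKM after it; 4.17 ± 0.37, adjusted p = 0.000199), Gm24187 (0, 0.897 and 2.48 FPKM before heat and 16.4, 38.8 and 30.7 FPKM after it; 3.90 ± 0.47, adjusted p = 0.00066) and the long noncoding RNA gene Gm20005 (0, 0.171 and 0.630 FPKM before heat and 43.2, 10.5 and 11.2 FPKM after it; 3.89, let in by heated libraries alone) followed among noncoding rises. The largest noncoding falls were those of Mir186 (1.79, 10.8 and 9.29 FPKM before heat), Mir7028 and Mir351, all listed at 0 in every heated library. Such short genes hold few fragments, and reads of overlapping transcripts can count toward them. Shares of protein-coding genes were 98.42% to 98.48% unheated and 97.3% to 97.52% heated. RNA quality was not otherwise measured in the files, and the part of these shares in the gene changes was not tested. Of nuclear long noncoding RNAs and paraspeckle proteins, Snhg12 rose (0.54) and Rbm14 (-0.77) and Gas5 (-0.39) fell, among 10 tested, and Neat1, the paraspeckle scaffold, stood at 9.48, 12.9 and 15.5 FPKM before heat and 23.2, 13.3 and 17.9 FPKM after it with overlapping groups. Of CLK kinases and SR splicing factors, 3 of 19 rose and 4 fell (with equal sums 0 rose and 7 fell, with a median of -0.19), among them Clk4 (0.41), Srsf6 (-0.54), Srsf1 (-0.47) and Tra2b (0.42, not called without any 1 of the unheated libraries, with adjusted p up to 0.0766). In the same list 6 rose without both libraries numbered 1, 1 rose without unheated replicate 2, and 2 fell without heated replicate 1 or 3.

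Genes that changed at least 2-fold were shorter in median than the rest. Protein-coding genes that rose at least 2-fold (519) spanned a median of 11.54 kb with 24 of them, or 4.62%, having 1 exon, and those that fell at least 2-fold (190) spanned 13.67 kb with 6.84% having 1 exon. The genes that did not pass the test spanned 24.86 kb with 2.02%, close to all protein-coding genes (23.46 kb and 2.06%).

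A set of 537 genes reached 1 FPKM in heated libraries only, and 91 in unheated ones only. Since the filter let these in through 1 group, their calls (520 rose, 76 fell) support nothing; among the 11666 genes at the minimum in both groups, 5568 or 47.7% were called. Of the 537, 308 were protein-coding, and among these, with predicted genes skipped, the largest changes were those of Postn, Egr2 and Nog. Their positions were compared with abundant genes: 61 of the 537, or 11.4%, began within 5 kb past the end of a gene of at least 10 FPKM unheated on the same strand, against 5.76% of the genes at the minimum in both groups and 1.1% of those at the minimum in unheated libraries only. On the opposite strand the shares were 8.57%, 7.29% and 1.1%. The files do not state whether the libraries keep strand, so reads of overlapping or antisense genes cannot be told apart.

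Whether the heat change differs between the CHIP-KO and the wild-type libraries was tested gene by gene. The labels give no number of lines, so genotype cannot be told apart from other differences between the cell lines. The test of the difference of the heat changes (CHIP-KO minus wild type, all 12 libraries) called 4497 of the 12294 genes, or 36.6%. Hspa1a (0.23 ± 0.20, adjusted p = 0.407), Hspb1 (0.06 ± 0.33, adjusted p = 0.906), Dnajb1 (0.41 ± 0.22, adjusted p = 0.16), Bag3 (-0.03 ± 0.28, adjusted p = 0.945), Atf3 (-0.01 ± 0.51, adjusted p = 0.984) and Phlda1 (0.0046 ± 0.18, adjusted p = 0.986) did not pass it, which does not show that the genotypes acted alike. Hsp90aa1 (0.98 ± 0.26, adjusted p = 0.0116), Hsp90ab1 (0.71 ± 0.13, adjusted p = 0.00144), Hspd1 (0.97 ± 0.25, adjusted p = 0.0106) and Hspe1 (0.94 ± 0.15, adjusted p = 0.000662) had a higher heat change in CHIP-KO cells, and Fos (-1.93 ± 0.24, adjusted p = 0.000106) and Egr1 (-1.96 ± 0.16, adjusted p = 7.12e-06) a lower one. The 784 genes that rose at least 2-fold in wild type had a median log2 change of 1.43 there and 0.52 in CHIP-KO cells, where 256 of them reached 2-fold. The 216 that fell at least 2-fold had medians of -1.17 and -0.14, and 17 reached 2-fold in CHIP-KO cells. These genes were chosen by their wild-type change, which by itself favours the wild type in such a comparison. Both sets also hold genes that reached the minimum in 1 wild-type group alone. The part of those genes in these medians and counts supports nothing. With at least 1 library of each wild-type group at the minimum, 488 genes rose and 200 fell at least 2-fold. Over all 12294 genes the difference was called positive for 2328 and negative for 2169. By list, it was called positive for 4 of 11 HSP70 and HSP110 genes and 11 of 15 HSP90 genes. It was called negative for 26 of 26 interferon genes (CHIP-KO median -0.30), 9 of 17 collagens (positive for 3) and 11 of 21 other matrix genes (positive for 1). Of these 3 lists, 23 interferon genes, 16 collagens and 20 other matrix genes were at the minimum in both wild-type groups. The filter let the remaining members in through 1 wild-type group, so their part in these counts supports nothing. The difference was called positive for 26 of 26 G2 genes (CHIP-KO median -0.08), 19 of 20 tRNA synthetases, 29 of 31 proteasome subunits and 8 of 8 TRiC subunits. Several of these genes already differed before heat: Bst2, at 35.1, 34.8 and 36.5 FPKM in unheated wild type, stood in CHIP-KO cells at 546, 531 and 587 FPKM before heat and 479.8, 439 and 458 FPKM after it. Postn, at 0.766, 0.775 and 0.898 FPKM in unheated wild type, stood there at 16.1, 16.1 and 17.8 FPKM before heat and 17.1, 15.4 and 15.4 FPKM after it. The CHIP-KO libraries carry their own unheated controls, so no library is shared between the heat comparisons.

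**Figure D4:**
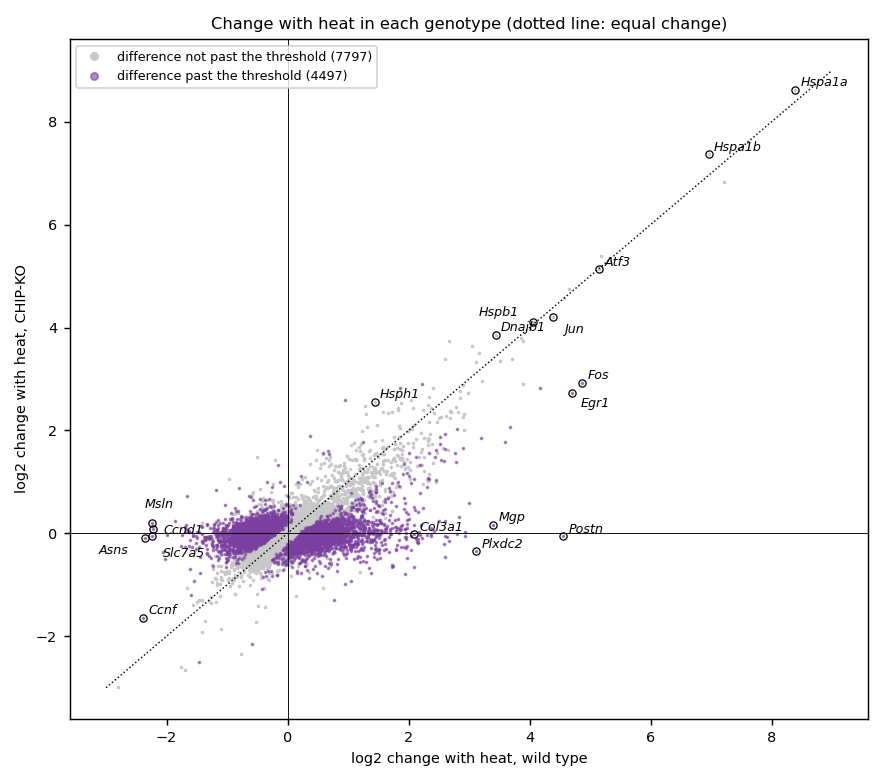
Log2 change with heat in CHIP-KO cells (y axis) against that in wild type (x axis) for the 12294 genes, in purple where the difference passed the test (4497). Hspa1a, Hspa1b, Atf3 and Jun lie near the dotted line of equal change, while Postn, Mgp, Plxdc2 and Col3a1 and, among falls, Asns, Slc7a5, Ccnd1 and Msln lie near a CHIP-KO change of 0.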

How the data were processed

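Libraries were made by poly(A) capture from column-purified RNA and sequenced by a service company, per the labels' protocols. Values are gene FPKM that the authors deposited in 1 table. HISAT2 is the only tool named in the submitters' processing notes, with no version. The counter, the build and the use of strand were not given in the sources used here. Gene positions in the table equal those of GENCODE M21 for 11806 of 12294 genes, so coordinates are GRCm38. The deposited FPKM were multiplied by gene length and divided by the smallest nonzero product of each library. This gave whole numbers within a tolerance of 0.01. They served as fragment numbers for depth and for 1 alternative, on the assumption that the smallest product is 1 fragment.

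Samples were grouped by their labels into unheated and heated wild type and CHIP-KO (n = 3 each). Genes that reached 1 FPKM in 3 or more of the 6 wild-type libraries were tested with limma 3.58.1 (R 4.3.3) on log2(FPKM + 1), with an intensity trend, on the 6 wild-type libraries alone. P-values were Benjamini-Hochberg adjusted over 12294 genes with a threshold of 0.05. The pseudocount of 1 understates the change of low genes. The difference of heat changes between genotypes is the interaction in a fit of all 12 libraries. The script was tested on simulated data. The genes, the gene lists and the tests were chosen with earlier results of these data known, and no list carries a test of its own. Named genes were the 15 largest protein-coding and 5 largest noncoding changes in each direction (called, groups apart, a mean of at least 2 FPKM in the higher group, predicted genes skipped among the coding ones), the 4 largest changes and the most abundant gene of each list, all genes of the chaperone, factor and ubiquitin lists, and Stub1. Genes that complete a count of 5 or fewer were named after their values were seen. Same-numbered libraries did not deviate together. Alternatives were other pseudocounts, filters, scalings, fits and left-out libraries. Promoters come from RefSeq (GRCm38.p6) and were searched for motif letters on both strands.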

Additional observations from a re-analysis of the deposited data

Results flagged for a closer look

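Of 256 genes named by rule, 158 had a heat change that differed between genotypes by the interaction test of limma (adjusted p under 0.05), 49 with a lower and 109 with a higher change in CHIP-KO cells. Beside them stand 4497 of all 12294 genes (36.6%), 2169 lower and 2328 higher. Many of the 256 were named by the size of their wild-type change, which by itself favours such a difference. Of the 256, 242 had at least 1 library of each wild-type group at the minimum. The part of the remaining genes in these counts supports nothing. Genotype cannot be told apart from differences between cell lines here, since the labels give no number of lines. Postn and Mir7028 reached 1 FPKM in only 1 of the wild-type groups, so no p is given for them. The 17 with a difference of at least 2 on the log2 scale, a 4-fold difference, are given here as CHIP-KO minus wild type.

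Matrix and membrane genes led the negative side. Postn, let in by heated wild-type libraries alone, differed by -4.61. Plxdc2 differed by -3.47 ± 0.19, adjusted p = 4.93e-07, Mgp by -3.22 ± 0.13, adjusted p = 8.61e-08 and Fmod by -2.82 ± 0.13, adjusted p = 1.5e-07. In CHIP-KO cells Mgp stood at 125, 123 and 127 FPKM before heat and 135, 140.1 and 147 FPKM after it, Fmod at 17.0, 15.7 and 16.4 FPKM before heat and 14.9, 14.7 and 14.4 FPKM after it and Plxdc2 at 5.15, 4.93 and 5.86 FPKM before heat and 4.46, 4.06 and 3.39 FPKM after it. Col3a1 differed by -2.11 ± 0.11, adjusted p = 4.27e-07, Col6a2 by -2.04 ± 0.09, adjusted p = 2.07e-07 and Myl9, a myosin light chain, by -2.03 ± 0.15, adjusted p = 2.66e-06. In CHIP-KO cells Col3a1 stood at 95.3, 94.7 and 105 FPKM before heat and 95.4, 99.4 and 96.2 FPKM after it, Col6a2 at 69.9, 68.9 and 72.8 FPKM before heat and 77.6, 81.6 and 79.1 FPKM after it and Myl9 at 17.3, 19.5 and 21.7 FPKM before heat and 18.0, 19.4 and 17.7 FPKM after it, so the unheated CHIP-KO libraries were above the unheated wild-type ones in each of these genes.

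Interferon genes followed. Irf7 differed by -2.45 ± 0.19, adjusted p = 3.44e-06, Usp18 by -2.33 ± 0.12, adjusted p = 3.53e-07, Oas1a by -2.23 ± 0.15, adjusted p = 1.67e-06 and Bst2 by -2.20 ± 0.11, adjusted p = 3.51e-07. In CHIP-KO cells Irf7 stood at 55.4, 52.7 and 57.1 FPKM before heat and 39.6, 37.5 and 41.0 FPKM after it and Usp18 at 51.9, 49.4 and 53.2 FPKM before heat and 48.8, 43.9 and 43.2 FPKM after it, above every wild-type library.

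On the positive side Msln differed by 2.46 ± 0.11, adjusted p = 1.5e-07, Krt19 by 2.40 ± 0.19, adjusted p = 4.57e-06, Ccnd1 by 2.31 ± 0.13, adjusted p = 4.78e-07, Asns by 2.26 ± 0.20, adjusted p = 1.06e-05 and Slc7a5 by 2.20 ± 0.10, adjusted p = 1.29e-07. In CHIP-KO cells Msln stood at 31.9, 30.9 and 27.6 FPKM before heat and 31.0, 38.0 and 36.2 FPKM after it, Asns at 39.1, 37.9 and 38.4 FPKM before heat and 35.5, 34.6 and 38.0 FPKM after it and Slc7a5 at 61.2, 61.6 and 61.4 FPKM before heat and 55.8, 59.0 and 63.7 FPKM after it, above every heated wild-type library, while Ccnd1 stood at 3.87, 3.43 and 3.31 FPKM before heat and 3.93, 3.78 and 3.78 FPKM after it, below every unheated wild-type library. Krt19 stood at 9.57, 9.73 and 8.88 FPKM before heat and 19.9, 14.0 and 15.3 FPKM after it. The microRNA gene Mir7028, let in by unheated wild-type libraries alone, differed by 2.11, with 4 of 6 CHIP-KO libraries listed at 0.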

How the results depend on the processing

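No gene called in wild type was called in the opposite direction under any setting run, and of the 6164 calls 78.0% to 99.9% remained in the settings that tested all of them. The split of higher and lower genes (2943 and 3221) became 1942 and 5495 with equal sums, and 1686 genes were higher when a mean FPKM of at least 5 was required. Counts of genes at least 2-fold higher (784) became 368 with that requirement and 488 when at least 1 library of each group had to reach the minimum, an alternative chosen after seeing the data. Counts at least 2-fold lower (216) became 369 with a pseudocount of 0.1, 504 with equal sums and 438 with voom on recovered fragments. The voom fit called 6597 genes in all, the fit with library weights 8614 and the fit of all 12 libraries 7414. Dnajb2 went from 0.04, not called, to -0.18 with equal sums (adjusted p = 0.0483). The cause was not tested. Leaving out single libraries gave 4888 to 6214 calls, 2414 to 3009 higher and 2454 to 3205 lower genes, 723 to 834 at least 2-fold higher and 187 to 258 at least 2-fold lower. Same-numbered unheated and heated libraries did not deviate together (correlations of deviations -0.088, -0.135 and 0.00939 for numbers 1 to 3). This cannot show whether they were paired by origin, which the labels do not state. A replicate block gave 5417 calls, 2657 higher and 2760 lower. Of 256 named genes, 240 had the same call without both libraries numbered 1, 2 lost it and 14 gained it. The limits are few libraries, unknown strand and counting, and low fragment numbers for short genes.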

Other observations

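Several genes outside the lists reached 1 FPKM only with heat, and some of those with large changes were picked after their values were seen. Mmp3, a secreted protease that cleaves matrix proteins, stood at 0.106, 0.0567 and 0.157 FPKM before heat and 5.01, 4.42 and 4.71 FPKM after it, with heated libraries close together. Gdf15, a stress-induced hormone of the TGF-beta family, stood at 0.274, 0.166 and 0.356 FPKM before heat and 13.1, 3.30 and 3.10 FPKM after it, and heated replicate 1 was well above the others. Lag3 stood at 0.331, 0.582 and 0.648 FPKM before heat and 11.6, 6.23 and 6.15 FPKM after it.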
